A study of Mus musculus with 12 samples.

Results

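The nuclear-encoded genes of oxidative phosphorylation were followed in mouse tibialis anterior muscle that carried an empty vector or a Dux vector, on normal or doxycycline chow. Members were the genes whose symbol starts with Ndufa, Ndufb, Ndufc, Ndufs or Ndufv and a digit, with Uqcr, with Cox and a digit from 4 to 8 or with Atp5, together with Sdha to Sdhd and Cyc1. The rule used no measured value and found 82 of the 12752 genes in the table, namely 37 of complex I, 4 of complex II, 9 of complex III, 15 of complex IV and 17 of complex V. All 82 are protein-coding, had counts in each of the 12 libraries and entered the test. A few symbols reach beyond the structural subunits. Ndufa4 is now placed in complex IV, Ndufa4l2 is its relative, Cox7a2l is a supercomplex factor, Atp5s is coupling factor B, and Atp5sl is a relative of Atp5s that is no subunit of the ATP synthase. They are kept under the complex of their symbol.

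Male C57BL/6 mice received their vectors by injection into the muscle at 8 weeks of age. Each muscle got AAV:TET together with either AAV:MCS, the empty vector, or AAV:Dux, which was given to the opposite limb. After 7 days the animals stayed on normal chow or went to chow with 600 mg/kg doxycycline. RNA-seq libraries of 4 groups, 3 each, are named for the vector and, where doxycycline was fed, for the drug. EV and EV_DOX muscles thus carried the empty vector and DUX and DUX_DOX muscles the Dux vector, the first of each pair on normal chow. AAV:TET was shared by all 4 groups. The labels name 2 or 7 days of doxycycline without saying which applies here, and they do not tie the libraries to separate animals, so that p-values measure the spread between libraries. Dux is the mouse counterpart of human DUX4, the factor wrongly expressed in facioscapulohumeral dystrophy, and the study asks what its induction does to muscle.

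Oxidative phosphorylation makes most of the ATP of a resting or slowly working muscle. Complexes I and II feed electrons from NADH and succinate into coenzyme Q, complex III passes them to cytochrome c, and complex IV hands them to oxygen. Complexes I, III and IV pump protons across the inner mitochondrial membrane, and complex V, the ATP synthase, lets them flow back to make ATP. The subunits are encoded partly in the nucleus and partly on mitochondrial DNA, except those of complex II, which are all nuclear. Complex IV has subunits with a ubiquitous and a heart and skeletal muscle isoform.

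Levels are given in CPM, read counts divided by TMM-scaled totals. Fold changes on the log2 scale, their standard errors (SE) and p-values come from edgeR's quasi-likelihood fit, with Benjamini-Hochberg adjustment over all 12751 genes tested. A gene was called at an adjusted p below 0.05. Library totals ran from 11880593 to 13811999 counts, of which the 82 genes took 2.02% to 2.75%. Muscle identity was clear in each library, with 143983 to 191204 CPM summed over 10 fast fibre genes. In DUX_DOX against EV_DOX 3224 genes were called, 59.1% of them higher. Scaling to library totals alone moved the median log2 fold change of all genes from -0.01 to 0.10 and the higher share to 78.3%, while upper-quartile scaling gave a higher share of 50.9%. In DUX_DOX against DUX the higher share was 55.7% of 3772 genes called, and 82.2% with library totals alone, which moved the median of all genes from 0.01 to 0.19.

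Promoter sequence was read for the 67 members matched in the RefSeq promoter table (GRCm38.p6), in windows from 250 bases before to 50 bases after the start. The motif of NRF1, a factor known for driving respiratory chain genes, reads GCGC, A, any base and GCGC. It occurred on either strand in 17 of the 67 members (25.4%) and in 5.19% of the 27025 genes of that table. In this paragraph all genes are these 27025, which were not limited to genes measured in this muscle. CCGGAAG, an ETS core of the GABPA type, occurred in 16 members (23.9%) against 9.93% of all genes. TNAAGGTCA, an extended half-site of the ERR receptors, occurred in 3 members (4.48%) against 1.43%. CCAAT occurred in 43.3% of members against 41.1% of all genes, and GGGCGG in 38.8% against 38.2%. The motifs differ in letters, and a base can belong to more than one match. The first window below belongs to Sdha, a catalytic subunit of complex II, which fell in the induced Dux muscle. The others belong to Cox6a1 and Cox7a1, a ubiquitous and a muscle isoform gene of complex IV. Their fold changes in DUX_DOX against EV_DOX had opposite signs, but edgeR called neither (adjusted p = 0.194 and 0.0812). Of each window, the printed part is the stretch nearest the start that lies in no annotated exon. Between it and the start, bases in annotated exons were left out, 40 for Sdha, 23 for Cox6a1 and 27 for Cox7a1. The stretches are read on the gene's own strand, with matches to the NRF1, ERR or ETS motif in capitals.
Sdha, chr13:74350281-74350308, minus strand: ggaggggcgtgttGCGCAGGCGCagaat
Cox6a1, chr5:115348982-115349129, minus strand: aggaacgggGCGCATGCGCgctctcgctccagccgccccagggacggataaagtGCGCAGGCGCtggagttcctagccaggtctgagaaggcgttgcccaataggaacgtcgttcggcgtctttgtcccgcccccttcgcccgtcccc
Cox7a1, chr7:30183921-30184143, plus strand: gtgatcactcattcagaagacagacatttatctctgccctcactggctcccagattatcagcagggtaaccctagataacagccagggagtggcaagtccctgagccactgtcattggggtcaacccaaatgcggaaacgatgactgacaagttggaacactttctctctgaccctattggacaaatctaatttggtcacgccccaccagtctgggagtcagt
The printed stretches differ in length. Over the whole windows, exons included, Sdha has 3 NRF1 matches, Cox6a1 has 2 and 1 ETS match, and Cox7a1 has 0 of these motifs. A match describes letters, and binding was not measured in these libraries.

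The summed level of the 82 genes was highest in DUX and lowest in DUX_DOX. It was 21960, 25778 and 21078 CPM in EV and 20182, 23150 and 27603 CPM in EV_DOX. It was 27045, 27220 and 27601 CPM in DUX and 22380, 17948 and 21155 CPM in DUX_DOX. All 3 DUX libraries lay above all DUX_DOX and EV libraries, whereas DUX_DOX overlapped EV and EV_DOX. The DUX libraries were close to each other: the median coefficient of variation of a member was 3.81% in DUX, against 13.96% in EV, 17.3% in EV_DOX and 12.1% in DUX_DOX. The mean of DUX was the highest of the 4 groups for 81 of the 82 genes, the exception being Cox4i2. The lowest mean was that of DUX_DOX for 44 genes, of EV for 35 and of EV_DOX for 3. In bulk muscle, fewer cells of a type and less RNA per cell cannot be told apart.

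**Figure D1:**
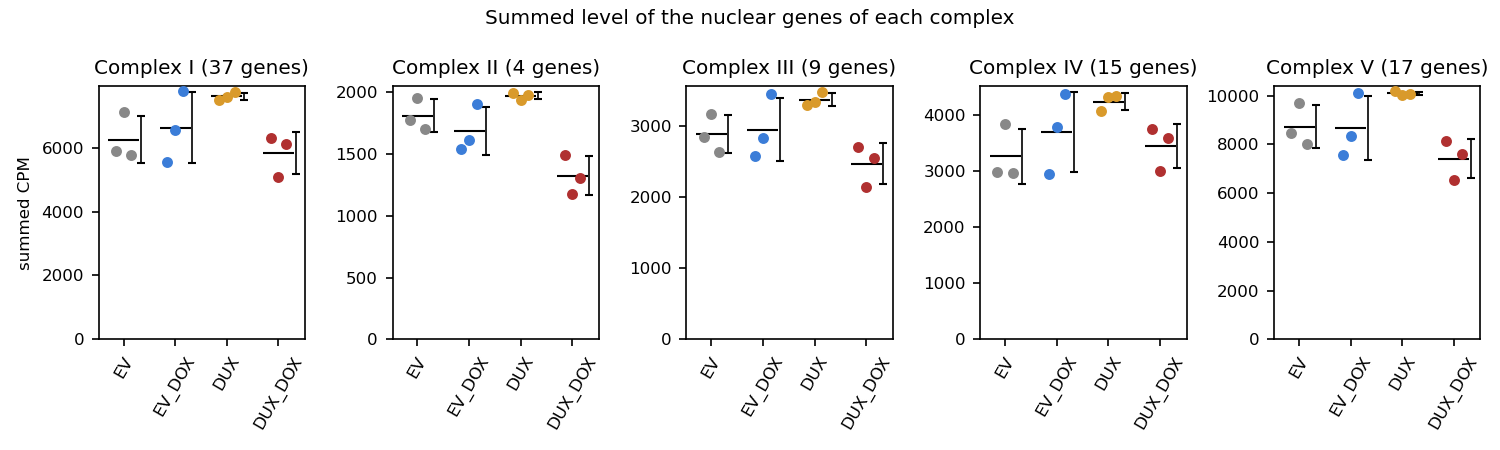
Summed CPM of the nuclear genes of complexes I to V, 1 point per library, with the group mean (line) and SD (bar, n = 3) for EV, EV_DOX, DUX and DUX_DOX. In each panel the 3 DUX points lie close together and above the 3 DUX_DOX points, and for complex II the DUX_DOX points lie below all others.

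**Figure D2:**
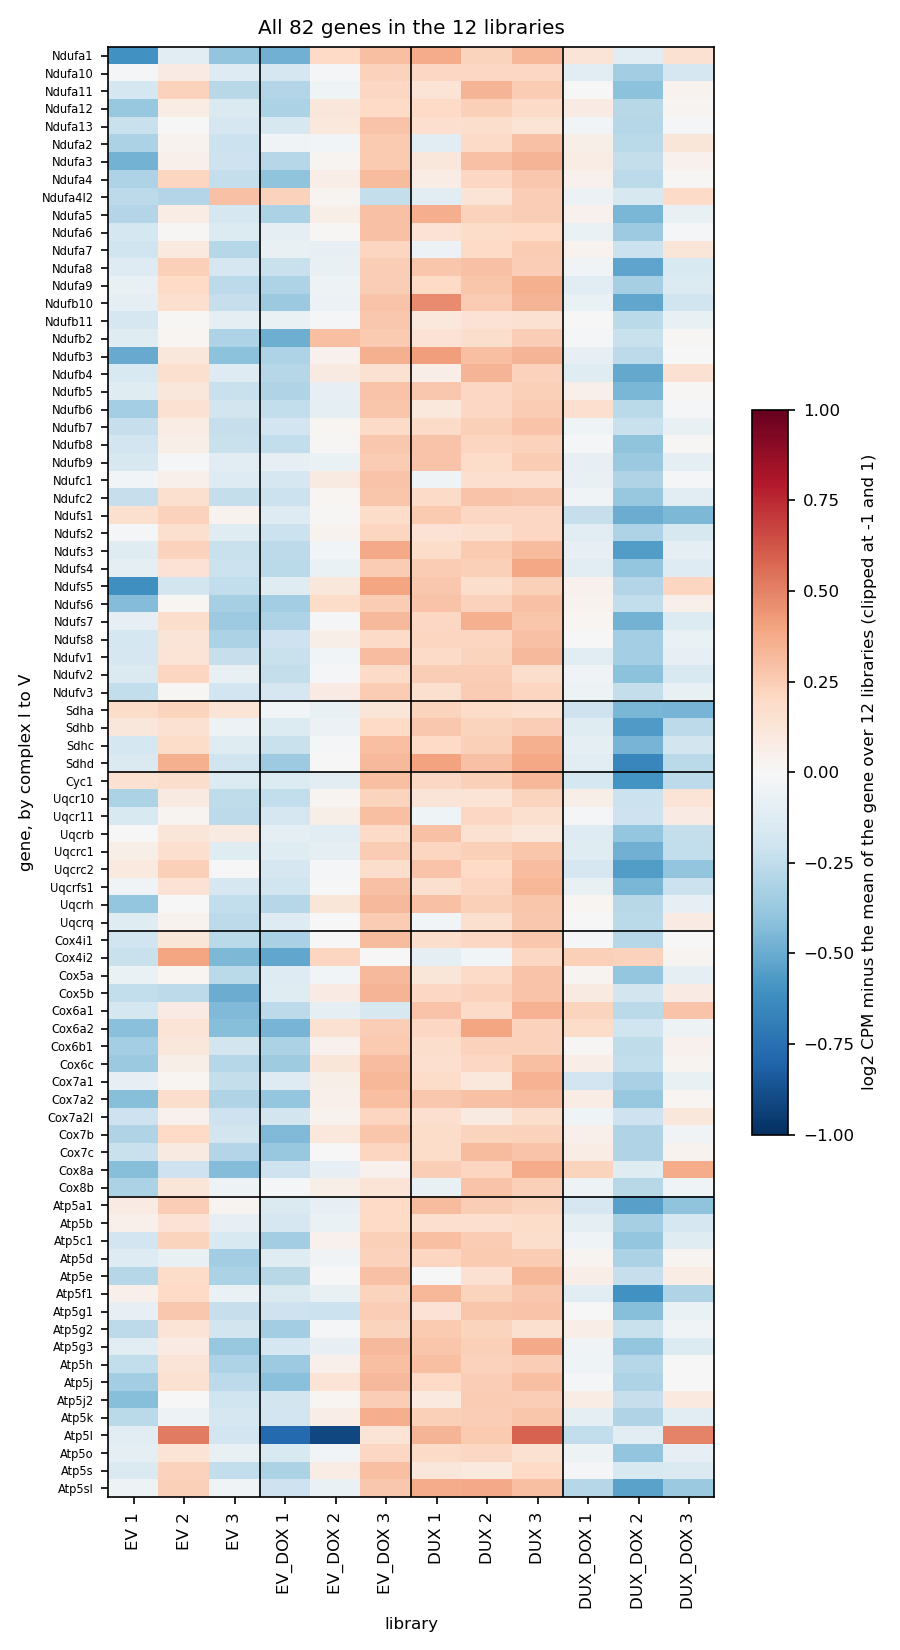
Level of each of the 82 genes in the 12 libraries, as log2 CPM minus the gene's mean over the libraries, ordered by complex. DUX columns and EV_DOX 3 are above the mean for nearly all genes, and DUX_DOX 2 is the lowest library for 43 of the 82 genes.

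The complexes moved to different degrees. Complex II gave the lowest ratio of summed levels, 0.785 for DUX_DOX against EV_DOX, followed by complex III with 0.838, complex V with 0.855, complex I with 0.879 and complex IV with 0.931. Against DUX the ratios were 0.672 for complex II, 0.733 for complex III, 0.735 for complex V, 0.766 for complex I and 0.814 for complex IV, in the same order. Complex II took 6.68%, 6.56% and 6.17% of the members' CPM in the DUX_DOX libraries, below the 7.65%, 6.97% and 6.92% of the EV_DOX libraries. Complex IV took 16.7%, 16.7% and 17.0% in DUX_DOX, above the 14.6%, 16.4% and 15.8% in EV_DOX. On normal chow the shares differed in the same directions, so this pattern was not limited to induced muscle. The mean share of complex II was 7.23% in DUX and 7.92% in EV, and that of complex IV was 15.5% in DUX and 14.2% in EV. These shares are descriptions without a test, and DUX_DOX enters both ratios.

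In induced muscle, DUX_DOX against EV_DOX, 5 of the 82 genes (6.10%) fell and none rose. Over all genes 10.3% fell and 14.9% rose, so in this fit the share of members that fell was not above the background. Alternative analyses called 2 to 19 members, as given below. The fold change was negative for 77 of the 82 members, with a median of -0.16 on the log2 scale against -0.01 over all genes. This median was -0.03 without EV_DOX 3 and -0.28 without EV_DOX 1. The 5 genes were Ndufs1, Sdha, Atp5sl, Uqcrc2 and Atp5a1. Every DUX_DOX library lay below every EV_DOX library for 8 members (9.76%, against 17.3% of all genes) and above for none (21.4% of all genes). An unadjusted p below 0.05 was reached by 14 members, all lower, where 37.8% of all genes reached it in either direction. With library totals alone the same 5 genes were called, 54 members were negative and the median was -0.05.

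Ndufs1 (ENSMUSG00000025968, chr1:63143596-63176833, minus strand) carries iron-sulphur clusters in the NADH-oxidising arm of complex I and is the largest subunit of that complex. It had 387, 323 and 334 CPM in DUX_DOX and 416, 460 and 517 CPM in EV_DOX, without overlap. It fell by 0.42 on the log2 scale (SE 0.10, adjusted p = 0.00769), to 0.749 times the EV_DOX level. Coordinates here are those of the whole gene in GENCODE M21 on GRCm38. Sdha (ENSMUSG00000021577, chr13:74322254-74350280, minus strand), the flavoprotein of complex II that oxidises succinate, had 782, 657 and 654 CPM in DUX_DOX and 885, 857 and 981 CPM in EV_DOX. It fell by 0.38 (SE 0.09, adjusted p = 0.00890). Both genes were called in each of the 23 alternative analyses of this comparison, with adjusted p up to 0.0387 for Ndufs1 and 0.0481 for Sdha.

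Uqcrc2 (ENSMUSG00000030884, chr7:120635176-120659524, plus strand), a core protein of complex III, had 403, 308 and 345 CPM in DUX_DOX and 405, 450 and 514 CPM in EV_DOX, so that the groups came within a few CPM of each other. It fell by 0.38 (SE 0.11, adjusted p = 0.0265). Atp5a1 (ENSMUSG00000025428), the alpha subunit of the catalytic head of the ATP synthase, had 1867, 1437 and 1585 CPM in DUX_DOX and 1901, 1985 and 2413 CPM in EV_DOX. It fell by 0.37 (SE 0.12, adjusted p = 0.0385). Atp5sl (ENSMUSG00000057229, chr7:25619414-25625551, plus strand) had 34.1, 28.7 and 32.2 CPM in DUX_DOX and 36.1, 39.8 and 50.1 CPM in EV_DOX, and fell by 0.41 (SE 0.12, adjusted p = 0.0220). In all 5 genes DUX_DOX 1 was the highest of its group. These calls rested on single libraries in part. Without EV_DOX 3, without DUX_DOX 2 or without DUX_DOX 3, only Ndufs1 and Sdha were still called lower. Without EV_DOX 1 the number of members that fell was 19, where 10.4% of all genes fell. That number was 8 without DUX_DOX 1, where 9.67% of all genes fell. Fits with only the groups compared, or with a block for same-numbered limbs on 1 chow, did not call Uqcrc2 or Atp5a1, and a block for the replicate number over all groups did not call Atp5a1. Atp5sl was not called with only the groups compared. Without EV_DOX 3 the fold change was negative for 46 members.

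**Figure D3:**
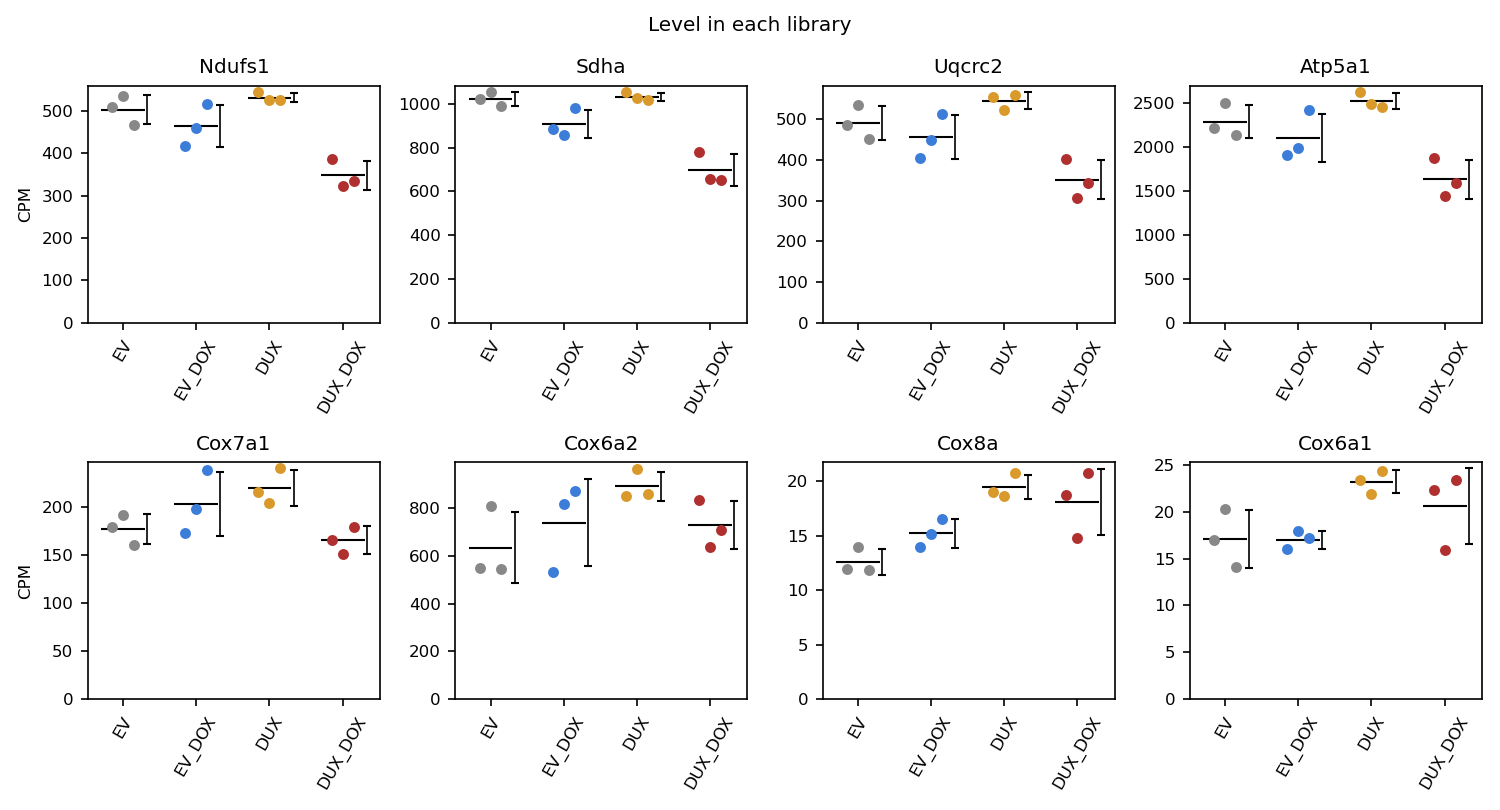
CPM of 8 genes in the 12 libraries, with the group mean (line) and SD (bar, n = 3). Ndufs1, Sdha, Uqcrc2 and Atp5a1 are lower in each DUX_DOX library than in each library of the other groups, while Cox8a and Cox6a1 reach their highest levels in DUX and DUX_DOX libraries.

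Complex I had 1 of 37 genes called lower in induced muscle. The 7 core genes, which bind flavin or iron-sulphur clusters or shape the quinone site, had a median of -0.21, and the 28 accessory genes one of -0.16. After Ndufs1, the lowest value of complex I was that of Ndufs3 with -0.28 (adjusted p = 0.229), and the highest was that of Ndufa1, a small membrane subunit, with 0.02 (adjusted p = 0.955). All 4 genes of complex II were negative. Sdhb, the iron-sulphur protein, had -0.31 (adjusted p = 0.0616), Sdhc -0.28 (adjusted p = 0.155) and Sdhd -0.34 (adjusted p = 0.176), the latter being the membrane anchors.

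All 9 genes of complex III were negative, 1 of them called. Cyc1, the cytochrome c1 that passes electrons to cytochrome c, had 311, 232 and 292 CPM in DUX_DOX and 319, 325 and 432 CPM in EV_DOX. Its groups did not overlap, yet its value of -0.37 missed the threshold (adjusted p = 0.0616). The same held for Uqcrb, a small subunit, with -0.25 (adjusted p = 0.0795). Uqcrc1, the other core protein, had -0.30 (adjusted p = 0.0899), and Uqcrfs1, the Rieske iron-sulphur protein, -0.28 (adjusted p = 0.124). The lowest absolute value of the complex was that of Uqcr10, -0.01.

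Complex V had 2 of 17 genes called, Atp5a1 and Atp5sl. Atp5b, the beta subunit and the member with the highest level per kilobase of exon (1446 CPM per kb over the libraries), had 2573, 2189 and 2443 CPM in DUX_DOX and 2452, 2635 and 3163 CPM in EV_DOX. The groups overlapped and its value was -0.20 (adjusted p = 0.221). Atp5f1 of the peripheral stalk had -0.33 (adjusted p = 0.0714). The genes Atp5g1, Atp5g2 and Atp5g3 encode the same c-ring subunit and had -0.11, -0.03 and -0.22, none called. Atp5l had the only positive value of the complex, 0.52 (adjusted p = 0.234), at 1.39 to 3.96 CPM over the 12 libraries. Of its sequence 84.8% of 50-base stretches also occur in other genes, so its counts are uncertain. The same applies to Atp5o, with 50.3% such stretches.

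Complex IV had no gene called in either direction, and its median of -0.09 was closest to 0. Cox7a1, the muscle isoform of subunit 7a, had 166, 151 and 179 CPM in DUX_DOX and 173, 197 and 238 CPM in EV_DOX, and its log2 value was -0.29 (adjusted p = 0.0812). The ubiquitous isoform genes Cox6a1 and Cox8a had positive values. Cox8a had 18.7, 14.8 and 20.8 CPM in DUX_DOX and 13.9, 15.2 and 16.6 CPM in EV_DOX (0.25, adjusted p = 0.168). Cox6a1 had 22.3, 15.9 and 23.4 CPM in DUX_DOX and 16.0, 17.9 and 17.1 CPM in EV_DOX (0.27, adjusted p = 0.194). The DUX_DOX 2 library lay within the EV_DOX range for Cox8a and just below it for Cox6a1. Without that library both were called higher, at adjusted p = 0.0441 and 0.0417. Cox6a2, the muscle partner of Cox6a1, had -0.02 (adjusted p = 0.947), Cox8b, the muscle partner of Cox8a, -0.18 (adjusted p = 0.294), and Cox7a2, the ubiquitous partner of Cox7a1, -0.10 (adjusted p = 0.715).

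Per kilobase of exon, the muscle isoform stayed dominant in each library. Cox6a2 made up 96.8% ± 0.47 (SD, n = 3) of the Cox6a pair in DUX_DOX and 97.2% ± 0.61 in EV_DOX. Cox7a1 made up 65.6% ± 2.43 of the Cox7a pair in DUX_DOX and 68.6% ± 1.98 in EV_DOX, with overlapping libraries. Cox8b made up 95.1%, 95.5% and 94.7% of the Cox8 pair in DUX_DOX, below the 96.4%, 96.3% and 96.2% of EV_DOX. In DUX it made up 95.0%, 96.1% and 95.6%, which overlaps DUX_DOX. The groups do not overlap in the first of these comparisons, but 3 libraries against 3 cannot give an exact permutation p below 0.10, and no p is given. Cox4i2, the lung isoform of subunit 4, had the lowest level of all members (2.84 CPM per kb) and stayed at 0.331% to 0.588% of the Cox4 pair over the 12 libraries.

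Within the Dux vector, DUX_DOX against DUX, 38 of the 82 genes (46.3%) fell and none rose, where 13.1% of all genes fell and 16.5% rose. Negative fold changes were found for 81 members, with a median of -0.35 against 0.01 over all genes. Every DUX_DOX library lay below every DUX library for 65 members (79.3%, against 22.6% of all genes). The called genes were spread over the complexes unevenly, with 20 of 37 in complex I, 4 of 4 in complex II, 5 of 9 in complex III, 1 of 15 in complex IV and 8 of 17 in complex V. The medians were -0.35, -0.56, -0.44, -0.28 and -0.37 in that order. The number that fell was 14 without DUX_DOX 2, 25 without DUX_DOX 3, and 22, 20 and 19 without DUX 1, 2 and 3. In these fits 9.7%, 8.81%, 9%, 9.39% and 9.9% of all genes fell, in that order. With library totals alone 18 members fell, where 6.02% of all genes fell. In that fit 75 members were negative and the median was -0.18.

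**Figure D4:**
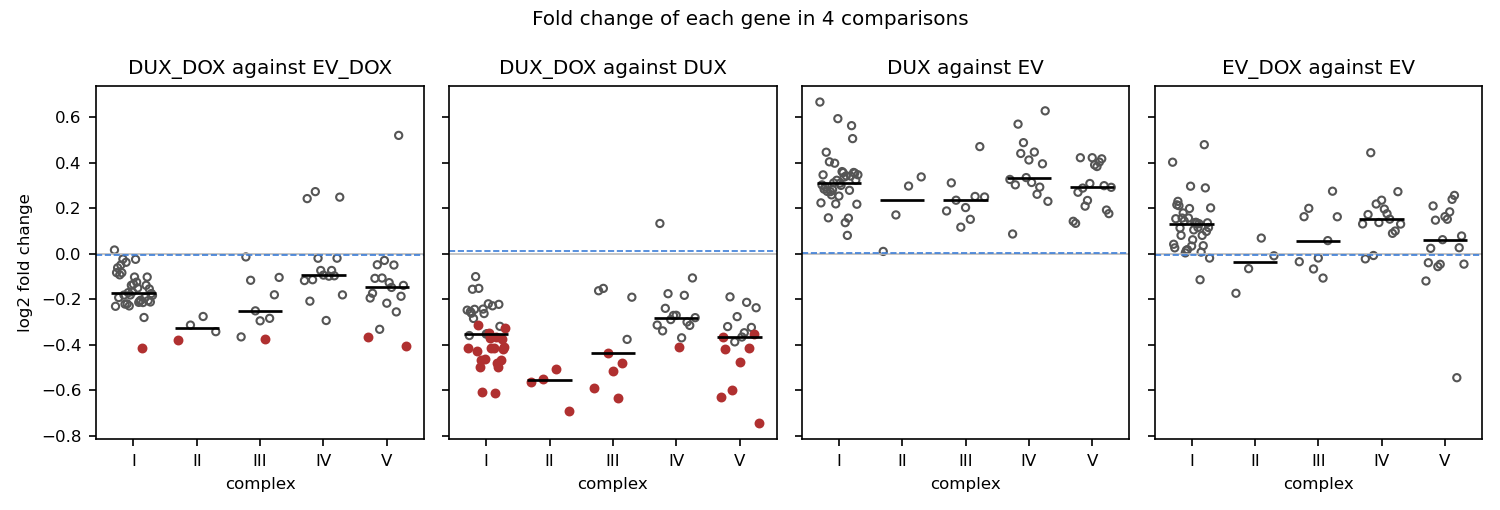
Log2 fold change of each of the 82 genes by complex in 4 comparisons, filled red where called, with the median per complex (black line) and over all genes (dashed blue line). In DUX_DOX against DUX 38 genes are called, 1 of them in complex IV, and in DUX against EV all 82 values lie above 0 with none called.

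All 7 core genes of complex I fell in DUX_DOX against DUX, and 13 of the 28 accessory genes. Ndufs1 had 545, 525 and 524 CPM in DUX and fell by 0.61 (SE 0.10, adjusted p = 0.000483). Ndufb10, an accessory subunit of the membrane arm, had 310, 268 and 284 CPM in DUX and 213, 156 and 195 CPM in DUX_DOX. It fell by 0.61 (SE 0.16, adjusted p = 0.00972). Ndufs4, an accessory subunit of the NADH-oxidising arm, fell by 0.50 (adjusted p = 0.00993). The values nearest 0 were those of Ndufa4l2 with -0.10 (adjusted p = 0.699) and of the accessory subunit Ndufa7 with -0.15 (adjusted p = 0.383). Ndufa4 had -0.24 (adjusted p = 0.292).

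Complex II fell as a whole in this comparison. Sdhd had 325, 302 and 323 CPM in DUX and 228, 157 and 205 CPM in DUX_DOX. It fell by 0.69 (SE 0.18, adjusted p = 0.0103), and without DUX_DOX 2 the adjusted p was 0.0515. Sdha fell by 0.56 (adjusted p = 0.000544), Sdhb by 0.55 (adjusted p = 0.00298) and Sdhc by 0.51 (adjusted p = 0.0131). For Sdhc the adjusted p without DUX_DOX 2 was 0.0614. In complex III both core genes and both redox subunits fell, Uqcrc2 by 0.63 (adjusted p = 0.000978), Cyc1 by 0.59 (adjusted p = 0.00515), Uqcrc1 by 0.52 (adjusted p = 0.00588) and Uqcrfs1 by 0.48 (adjusted p = 0.0134). Of the 5 small subunits 1 fell, Uqcrb by 0.44 (adjusted p = 0.00504).

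Complex IV was called in Cox7a1 only, which fell by 0.41 (SE 0.12, adjusted p = 0.0172). It was not called without DUX 3, without DUX_DOX 2 or with library totals alone, where adjusted p reached 0.111. Cox4i1 and 6 other common subunits, such as Cox5a at -0.34 (adjusted p = 0.0636), were all negative and none was called. For each of them every DUX_DOX library lay below every DUX library. The supercomplex factor Cox7a2l had -0.18 (adjusted p = 0.226), with overlapping libraries. In complex V the lowest value of all members was that of Atp5sl. It had 53.8, 54.1 and 51.3 CPM in DUX and fell by 0.74 (SE 0.12, adjusted p = 0.000387). Atp5a1 fell by 0.63 (adjusted p = 0.00158), Atp5f1 by 0.60 (adjusted p = 0.00326) and Atp5b by 0.37 (adjusted p = 0.0237). Of the c-ring genes Atp5g3 fell by 0.48 (adjusted p = 0.0213), and Atp5g1 with -0.39 (adjusted p = 0.0690) and Atp5g2 with -0.28 (adjusted p = 0.132) did not pass.

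On normal chow, DUX against EV, all 82 fold changes were positive, with a median of 0.30 against 0.00 over all genes, yet edgeR called none of the members and 0% of all genes. An unadjusted p below 0.05 was reached by 45 members, where 15.8% of all genes did, and DESeq2 called 8 members, all higher. Every DUX library lay above every EV library for 54 members (65.9%, against 11.3% of all genes). The smallest adjusted p of the members was 0.179, for Cox8a with 0.63 and Cox5b with 0.57. Cox5b, a subunit without isoforms, had 334, 340 and 353 CPM in DUX and 244, 242 and 205 CPM in EV. Cox8a had 19.1, 18.6 and 20.8 CPM in DUX and 12.0, 13.95 and 11.9 CPM in EV. At the low end were Sdha with 0.01 and Ndufs1 with 0.08, whose libraries overlapped. Without EV 2, the highest EV library in summed level, the median was 0.43 and edgeR called 2 members. The share of all genes called is not given for this fit or for DESeq2. Neither count can thus be set beside a background.

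Doxycycline chow with the empty vector, EV_DOX against EV, gave no call among the members, and 0.0392% of all genes were called higher and 0% lower. DESeq2 also called 0 members, and 4 members reached an unadjusted p below 0.05, where 7.83% of all genes did. The median was 0.12 against 0.00 over all genes, with 65 members positive and 17 negative. It turned to -0.01 without EV_DOX 3. The groups were apart for 3 members, 2 above (5.69% of all genes) and 1 below (6.45% of all genes). Cox5b, with 267, 307 and 366 CPM in EV_DOX, and Ndufs5, an accessory subunit of complex I, were above EV (0.44, adjusted p = 0.414, and 0.48, adjusted p = 0.494). Sdha was below EV, where it had 1024, 1056 and 993 CPM (-0.17, adjusted p = 0.667).

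The interaction asks whether the vector effect on doxycycline chow differed from that on normal chow. It was negative for 80 members, with a median of -0.49 against 0.01 over all genes, and 8 members (9.76%) were called lower, where 3.43% of all genes were called lower and 6.97% higher. An unadjusted p below 0.05 was reached by 55 members and by 26.9% of all genes. The 8 genes came from complexes I, III, IV and V. Atp5k, a small membrane subunit of the ATP synthase, had 117, 101 and 116 CPM in DUX_DOX, 109, 131 and 160 CPM in EV_DOX, 148, 148 and 152 CPM in DUX and 103, 120.5 and 111 CPM in EV. Its interaction was -0.67 (SE 0.17, adjusted p = 0.0192). In this gene DUX was above EV and DUX_DOX overlapped EV_DOX. The number of members called was unstable, from 2 without EV 1, EV 3 or DUX_DOX 2 to 36 without EV 2 and 55 without EV_DOX 1. In these fits 1.91%, 1.52%, 1.66%, 5.25% and 7.05% of all genes were called lower, in that order. The number of members was 3 without EV_DOX 3, DUX 1 or DUX 3, 4 without DUX 2, 5 without EV_DOX 2 and 14 without DUX_DOX 1. There 1.62% to 3.88% of all genes were called lower. DESeq2 called 34 members, where 4.63% of all genes were called lower. The interaction shares its 4 groups with the comparisons above.

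Fold changes of the members varied with exon length, read from GENCODE M21. Over the 82 genes Spearman's rho between log2 fold change and length was -0.44 in DUX_DOX against EV_DOX, -0.44 in DUX_DOX against DUX, -0.37 in DUX against EV and -0.44 in EV_DOX against EV. Over all genes with a length it was -0.07, 0.01, -0.44 and -0.38. The genes of one library share its RNA and depth, and these values are descriptions across genes. In DUX against EV, genes under 1000 bases had a median of 0.23 over all genes and 0.33 over the 42 members of that length. The 40 longer members had 0.28 against -0.01 over all longer genes. That comparison is not matched in length, since all longer genes include a bin without members (median length 7644) with a median of -0.17. In the bin just above 1000 bases all genes had 0.16 and the 17 members 0.31. In the following bins it was 0.11 against 0.21 for 13 members, and 0.05 against 0.22 for 7. In DUX_DOX against EV_DOX the shorter members had -0.12 against 0.00 over all short genes, and the longer ones -0.19 against -0.01. All 5 genes called in that comparison are among the longer members, namely Ndufs1 (2819 bases), Sdha (2900), Atp5a1 (2904), Atp5sl (2437) and Uqcrc2 (1896). With an offset for length in each library, chosen after this was seen, 18 of the 82 members fell in DUX_DOX against EV_DOX, where 12.5% of all genes fell. With this offset the median of the members in DUX against EV was 0.13. Whether length, or RNA integrity, had a part in the fold changes of single members was not tested further.

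**Figure D5:**
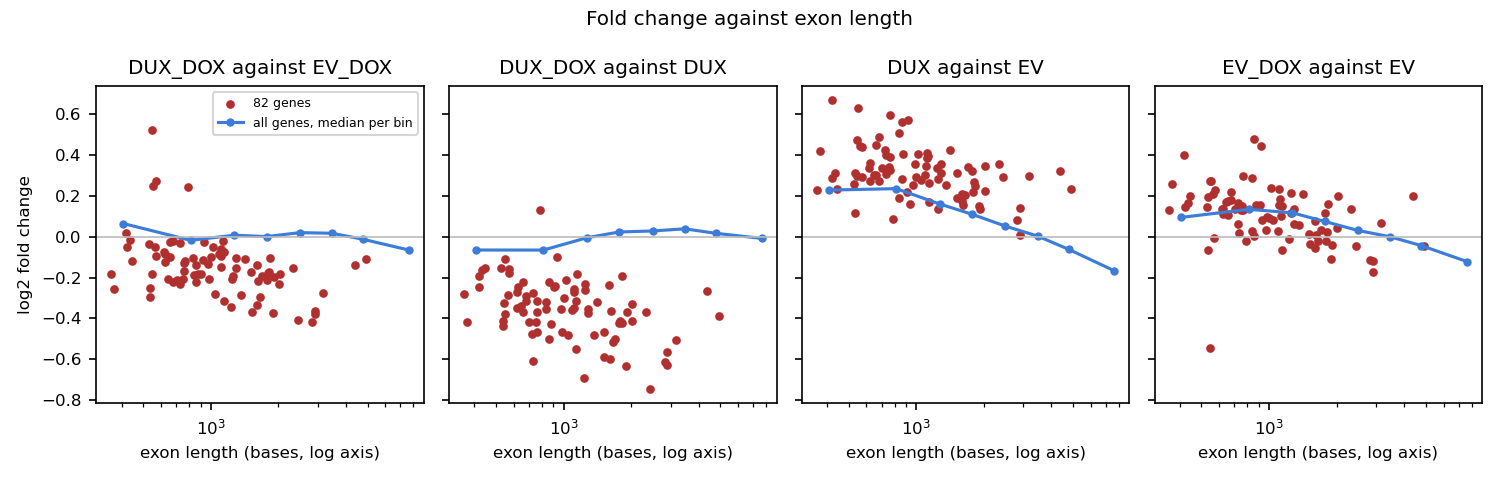
Log2 fold change against exon length (log axis) for the 82 genes (red points) in 4 comparisons, with the median over all genes per length bin (blue). In DUX against EV and EV_DOX against EV the blue line falls with length, and in both DUX_DOX comparisons it stays near 0 while the red points lie mostly below it.

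The genes that build the complexes were read from lists of assembly factors. Of 50 such genes measured, 15 fell (30.0%, against 10.3% of all genes) and none rose (14.9% of all genes) in DUX_DOX against EV_DOX, with a median of -0.20 against -0.01 over all genes. In complex I 5 of 15 fell, among them Tmem186 by 0.33 (adjusted p = 0.0180) and Ndufaf1 by 0.45 (adjusted p = 0.0246). In complex III 3 of 6 fell, led by Uqcc1, needed to make cytochrome b, by 0.56 (SE 0.10, adjusted p = 0.00113). In complex IV 7 of 22 fell, among them Coa5 by 0.44 (adjusted p = 0.00117), Cox15, which makes heme A, by 0.38 (adjusted p = 0.00265) and Lrpprc, which binds mitochondrial mRNA, by 0.49 (adjusted p = 0.00838). None of the 4 genes for complex II or the 3 for complex V was called. Against DUX, 23 of the 50 fell (46.0%, against 13.1% of all genes) and none rose (16.5% of all genes).

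Coenzyme Q synthesis had 4 of 13 genes lower and 1 higher in DUX_DOX against EV_DOX, where 10.3% of all genes were lower and 14.9% higher. Coq5, a methyltransferase of the pathway, fell by 0.52 (adjusted p = 0.000759), and Adck3 by 0.59 (adjusted p = 0.0172), while Adck4 rose by 0.79 (adjusted p = 0.00566). Of 9 electron and nucleotide carriers 1 fell and 1 rose. Etfdh, which passes electrons from fat oxidation to coenzyme Q, fell by 0.46 (adjusted p = 0.0156). Slc25a5, an ADP and ATP carrier, rose by 0.58 (adjusted p = 0.000896). The muscle carrier Slc25a4 had -0.30 (adjusted p = 0.160). Of 26 genes of the outer membrane and protein import, 3 fell, a share close to the 10.3% of all genes, and 1 rose. The channel gene Vdac1 fell by 0.43 (adjusted p = 0.00912), and Tomm20 rose by 0.36 (adjusted p = 0.0158).

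The partner subunits encoded on mitochondrial DNA had like signs. All 7 measured were negative in DUX_DOX against EV_DOX, with a median of -0.21, and mt-Nd6 fell by 0.55 (adjusted p = 0.0247). mt-Nd6 is encoded on the other strand than its neighbour mt-Nd5, and whether the counting used strand is not given in the sources used here, so its value is uncertain. Their summed level was 151492 to 193495 CPM in EV_DOX and 134810 to 163386 CPM in DUX_DOX, with overlap. Against DUX, 5 of the 7 fell, where 13.1% of all genes did. Among them mt-Co1, the catalytic subunit of complex IV, fell by 0.45 (adjusted p = 0.0145).

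Markers of other cells moved between the groups as well. All 15 macrophage and monocyte genes were called higher in DUX_DOX against EV_DOX, and their summed level was 282 to 406 CPM in DUX_DOX, 115 to 148 in EV_DOX, 167 to 192 in DUX and 111 to 172 in EV. The 10 fast fibre genes summed to 143983 to 161104 CPM in DUX_DOX and 171036 to 189334 in EV_DOX, with 2 called lower. They summed to 170371 to 191204 CPM in DUX and 178500 to 186570 in EV. The 10 slow or oxidative fibre genes summed to 2788 to 3974 CPM in DUX_DOX and 2940 to 4479 in EV_DOX. Their sum was 4493 to 4872 CPM in DUX, above every DUX_DOX library and every EV library (2976 to 4245 CPM). Single genes of this list often differed from the sum. In DUX_DOX against DUX 7 were positive and 3 negative, with a median log2 fold change of 0.995. Of these 2 were called higher and 2 lower (16.5% and 13.1% of all genes). In EV_DOX against EV 8 were positive and 2 negative, with a median of 1.02 and none called. In DUX_DOX against EV_DOX 8 were negative and 2 positive, with a median of -0.42. Among these 10 genes Csrp3 rose by 5.59 and Myl3 fell by 0.63 in DUX_DOX against EV_DOX. Within EV and EV_DOX the members' sum was lowest where connective tissue markers were highest. The 7 fibro-adipogenic genes summed to 3090 CPM in EV 3 and 3001 in EV_DOX 1, and to 1172 in EV 2 and 871 in EV_DOX 3, the libraries with the highest members' sum of their groups. In DUX they summed to 1268 to 1787 CPM and in DUX_DOX to 1680 to 2311 CPM. The 5 tenocyte genes summed to 941 CPM in EV 3 and 863 in EV_DOX 1, and to at most 306 in the other 10 libraries. The 4 adipocyte genes measured summed to 2.71 to 5.49 CPM in DUX_DOX, 3.43 to 10.9 in EV_DOX, 9.49 to 17.1 in DUX and 4.73 to 17.7 in EV. None was called in DUX_DOX against EV_DOX and 3 of the 4 were lower in DUX_DOX against DUX, the comparison in which 38 members fell. The 5 red blood cell genes summed to 224 to 537 CPM in DUX, above the 130 to 179 in EV, where the members' values were also positive. Each of the 5 was above EV in every DUX library, and edgeR called none, with all 5 under 0.05 before adjustment. They summed to 169 to 255 CPM in DUX_DOX and 86.1 to 234 in EV_DOX, and 1 was called lower in DUX_DOX against DUX. Of 7 endothelial genes Kdr fell in DUX_DOX against EV_DOX by 0.52 (adjusted p = 0.00492), with sums of 448 to 469.9 CPM in DUX_DOX and 498 to 533 in EV_DOX. Of 4 smooth muscle genes Tagln rose by 0.63 (adjusted p = 0.00122), with sums of 129.7 to 147 CPM in DUX_DOX and 89.3 to 123 in EV_DOX. The part of these cells in the members' values was not tested.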

How the data were processed

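Poly-A selected RNA of whole tibialis anterior muscle (200 ng per library) was sequenced in 12 libraries, 3 for each of 4 groups. The deposited values are raw counts of reads on each gene. The submitters' processing notes name bcl2fastq (2.17.1.14), STAR, featureCounts and the build GRCm38. The sources used here give neither the annotation nor the strand setting of the counting. The deposited table's lowest mean count of a gene is 10, so genes below that are not analysed here.

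Counts were fitted for all 12 libraries with edgeR 4.0.16 (R 4.3.3) and its two-sided quasi-likelihood F test (TMM factors 0.916 to 1.12, default filter on low counts, 1 mean per group, prior count 0.125), which left 12751 genes. Each of 5 contrasts was adjusted by Benjamini-Hochberg on its own, with a threshold of 0.05. Alternatives were other scalings, filters, DESeq2 1.42.0, voom of limma 3.58.1, only the groups compared, replicate blocks, each library left out and an added length offset. No pair of libraries within a group was a duplicate (chi-square per degree of freedom 4.81 to 25.5), and the fit was tested on simulated counts. Exon lengths came from GENCODE M21, which held 12723 of the 12752 gene identifiers, and promoters from RefSeq.

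The members and the gene lists were chosen with earlier results of these data known. Genes were named by a rule. It took members called in any contrast (at most the 25 with the smallest adjusted p), those with the smallest p, lowest and highest change of each complex in DUX_DOX against EV_DOX, complex II, the isoform and c-ring genes, the 2 highest and 2 lowest levels per kilobase, and up to 5 called genes of each list. Further members shown were chosen after their values were seen, among them Ndufs3, Ndufs4, Ndufs5, Ndufa7, Uqcr10, Cox5a, Atp5o and mt-Co1, the lists' Slc25a4, and genes called in the interaction.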

Additional observations from a re-analysis of the deposited data

Results flagged for a closer look

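The vector effect differed between the chows, by the interaction term of the edgeR model, in 8 of the 82 genes. In each the vector effect, log2 of Dux over empty vector, was lower on doxycycline chow than on normal chow. The difference was -0.70 for Atp5sl (adjusted p = 0.0169), -0.68 for Cox5b (adjusted p = 0.0180) and -0.67 for Atp5k (adjusted p = 0.0192). It was -0.55 for Ndufb9 (adjusted p = 0.0320), -0.61 for Cox7a1 (adjusted p = 0.0326) and -0.53 for Ndufv3 (adjusted p = 0.0368). For Ndufs1 it was -0.50 (adjusted p = 0.0387) and for Uqcrh -0.65 (adjusted p = 0.0484). Atp5sl was called in each of 22 alternative analyses, Cox5b in 21, Atp5k in 20, Ndufb9 in 15, Cox7a1 in 14 and Ndufs1 in 10. Ndufv3 and Uqcrh were not followed singly over the alternatives. Of the 8, Atp5sl and Ndufs1 were also called lower in DUX_DOX against EV_DOX. Ndufs1 had a value of 0.08 in DUX against EV, while Cox5b had 0.57.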

How the results depend on the processing

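In DUX_DOX against EV_DOX the number of members called was 5, and it was 9 with upper-quartile scaling, 11 with DESeq2, 2 with only the groups compared, 3 with a replicate block by limb pair, 18 with the length offset, and 2 to 19 with 1 library left out. In DUX_DOX against DUX it was 38, and 18 with library totals alone, 61 with only the groups compared, and 14 to 46 with 1 library left out. In DUX against EV it was 0, and 8 with DESeq2 and 0 to 2 with 1 library left out, without a share of all genes given for these fits. In the interaction it was 8, and 13 with the size factors of DESeq2 in edgeR, 19 with upper-quartile scaling, 4 with library totals alone, 13 with a mean of at least 5 CPM, 34 with DESeq2, and 2 to 55 with 1 library left out. Over the alternative fits, 5.29% to 12.9% of all genes were called lower in DUX_DOX against EV_DOX. The range was 6.02% to 16.5% in DUX_DOX against DUX and 1.41% to 7.05% in the interaction. The median of EV_DOX against EV was -0.0075 with the length offset and between -0.0092 (without EV_DOX 3) and 0.24 (without EV 2) with 1 library left out. The medians of the other comparisons kept their sign in all alternatives run. The cause of these moves was not tested. Leaving out libraries or groups leaves fewer samples, and such fits called more members in some cases and fewer in others.

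Whether same-numbered libraries come from opposite limbs of 1 animal is not stated in the labels. For same-numbered libraries of both vectors on the same chow, deviations from the group mean had correlations of -0.11 to 0.18. This leaves the pairing unknown, and the number was not used as a block in the reported fit. With the replicate block 4 members were called in DUX_DOX against EV_DOX, 32 in DUX_DOX against DUX and 7 in the interaction. With this block 9.65%, 12.7% and 2.49% of all genes were called lower, in that order. The precision is set by 3 libraries a group at 11880593 or more counts each, with standard errors of the log2 fold change in DUX_DOX against EV_DOX from 0.09 (Sdha) to 0.31 (Atp5l).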
